A study of Homo sapiens with 26 samples.

Results

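Control xenografts of KELLY cells were compared with the same cell line grown in culture, to describe which genes differ between a tumour in a mouse and a culture dish. KELLY is a human neuroblastoma cell line in which MYCN is amplified. The members were chosen by their labels: 7 of the 26 libraries of the series, namely 4 tumours from mice given control food (genotype WT in the labels) and 3 cultures of cells with the empty vector F1HUTG (EV) kept for 72 h in DMSO, the solvent. The rest of the series held 4 tumours labelled RUNX1T1 KO from mice on doxycycline food and 15 cultures of the EV, sh4 and shAMB lines with DMSO or doxycycline, where sh4 and shAMB are hairpins against RUNX1T1. Per the study's methods the tumours grew under the skin of female NOD SCID gamma mice, which lack mature lymphocytes, from cells that carried an inducible hairpin and not the empty vector. The vector line, the table of deposited counts, growth in a mouse and the presence of mouse cells therefore all differ between both groups. Within these 7 libraries they cannot be told apart. Fits with shAMB or sh4 DMSO cultures in place of the EV cultures vary the line and leave the other differences in place. The labels do not say whether each tumour came from another mouse, how long it had grown or whether the cultures were independent, so that p-values measure the spread between these libraries.

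Cells in a tumour share oxygen and nutrients with their neighbours and receive signals from blood vessels, matrix and host cells, whereas cultured cells receive serum, glucose and oxygen in excess. Low oxygen stabilises hypoxia-inducible factors, which switch on genes for glucose use, acid handling and vessel growth. Neuroblastoma arises from the sympathetic lineage, in which bone morphogenetic protein (BMP) signals and the factors PHOX2A, HAND2 and GATA3 set up the catecholamine-producing state. The 7 markers of that adrenergic state examined, among them PHOX2A, HAND2 and MYCN, were detected in each of the 7 libraries, at 6.64 to 3047 CPM (a gene's counts per library total, scaled by TMM).

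Total expected counts were 47346063 to 61081075 in the control xenografts and 35115915 to 44579339 in the EV DMSO cultures. Small RNA genes made up 7.05% to 18.3% of counts in the xenografts but 0.77% to 1.09% in the cultures, and were left out before scaling. Their largest member, RN7SL1 (the RNA of the signal recognition particle), had 819830 to 3124374 counts in the xenografts and 25 to 38 in the cultures. The labels name polyA RNA and a total RNA kit for all libraries, and the part of library preparation in the results below was not tested. Control xenograft 4 stood apart from the other control xenografts by the number of genes with a count, 20997 against 18261 to 18490.

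**Figure D1:**
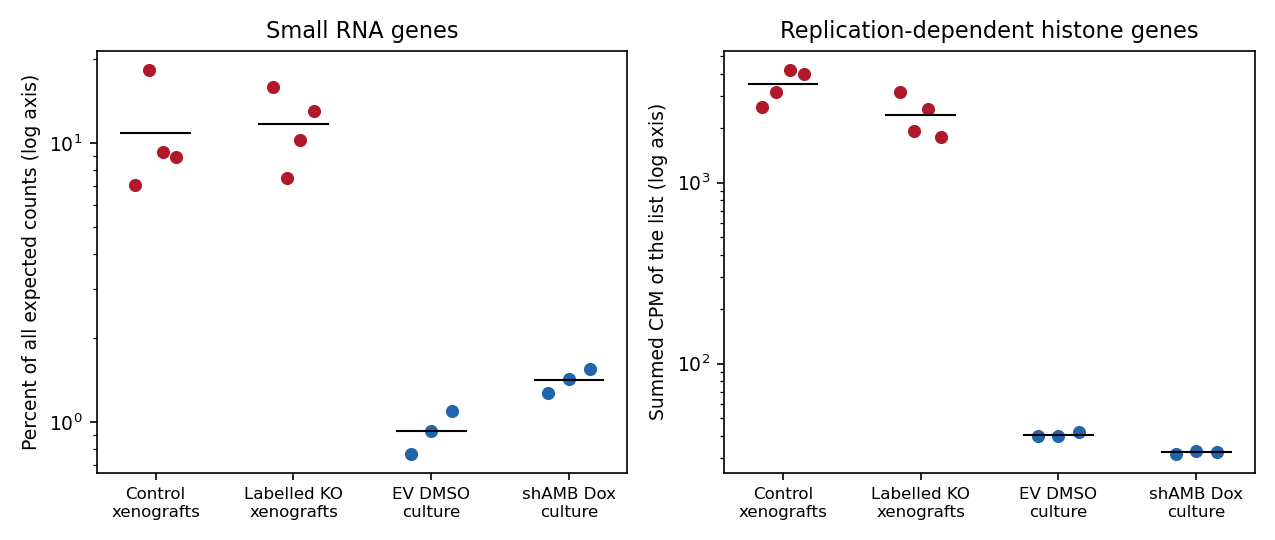
Each point is a library and each black line a group mean, for the percent of all expected counts in small RNA genes (left) and the summed CPM of replication-dependent histone genes (right), both on log axes. The 8 xenografts lie above every culture in both panels, with 1794 to 4203 CPM of histone transcripts against 31.8 to 42.0 CPM in the cultures shown.

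RUNX1T1, a transcriptional co-repressor and the target of the hairpins, had 34.2, 47.0, 31.7 and 36.4 CPM in control xenografts 1 to 4 and 46.8, 41.0 and 43.0 CPM in EV DMSO cultures 1 to 3. The groups overlapped, with a log2 fold change (xenograft over culture, as throughout) of -0.23 and a 95% interval of -0.52 to 0.07 (edgeR adjusted p = 0.171). On a scale shared by all 26 libraries, RUNX1T1 spanned 25.8 to 36.9 CPM in the tumours labelled RUNX1T1 KO and 32.4 to 46.0 CPM in the control tumours, and 41.3 to 43.7 CPM in shAMB cells with doxycycline and 42.6 to 46.0 CPM with DMSO. Its RNA level thus overlapped between labelled knock-out and control libraries in both settings, and the labels of those libraries are used as given. Protein was not measured here. The study reported less RUNX1T1 protein in KELLY cells with induced hairpins, and its loss by staining in KELLY tumours on doxycycline.

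Of 15214 genes tested, 3966 (26.1%) were higher and 4359 (28.7%) were lower in the control xenografts at an edgeR adjusted p under 0.05, and these shares are the background for every count below. With a log2 fold change of at least 1 as well, 2082 genes were higher and 679 lower. The libraries of the groups did not overlap for 8627 genes (56.7%). Tumours were also compared with cultures in 7 libraries not used above, the 4 tumours labelled knock-out and 3 shAMB cultures with doxycycline. There 27.9% of 16073 genes were higher and 28.2% lower. Both sets compare the xenograft table with the culture table, with mouse cells in the tumours only. Agreement between the sets therefore cannot tell growth in mice apart from these differences. Of the 3915 genes higher in the control xenografts and tested in this second set, 3096 were higher again and 23 lower, and of the 4337 lower genes, 3347 were lower again and 19 higher.

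The division into higher and lower genes depended on the scaling. When TMM was computed over genes with at least 10 CPM in every library, the median of all genes moved from 0.00 to 0.15 on the log2 scale and 62.2% of the changed genes were higher, against 47.6% with TMM over all genes kept. With small RNA genes included the median was 0.10 and 58.1% were higher. The calls also moved with gene length. Among genes longer than 8000 bases 70.1% were higher and 6.14% lower, whereas among those of 1000 to 2000 bases 17.1% were higher and 35.7% lower. Long transcripts named below are therefore also given with the length trend removed where this ends or turns a call.

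**Figure D2:**
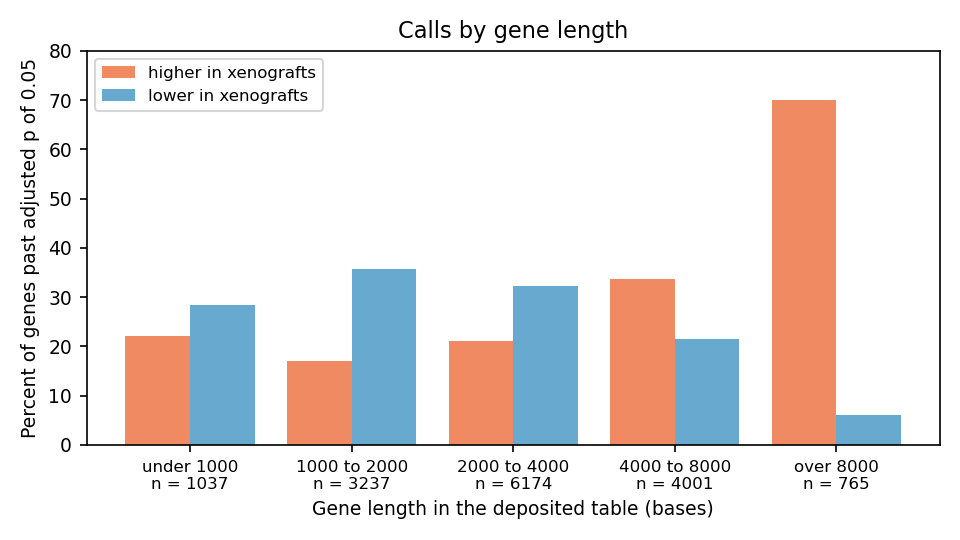
Bars give the percent of tested genes past an adjusted p of 0.05, higher or lower in control xenografts, within 5 ranges of the gene length deposited with the counts. The share of higher genes was 17.1% at 1000 to 2000 bases and 70.1% above 8000 bases.

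**Figure D3:**
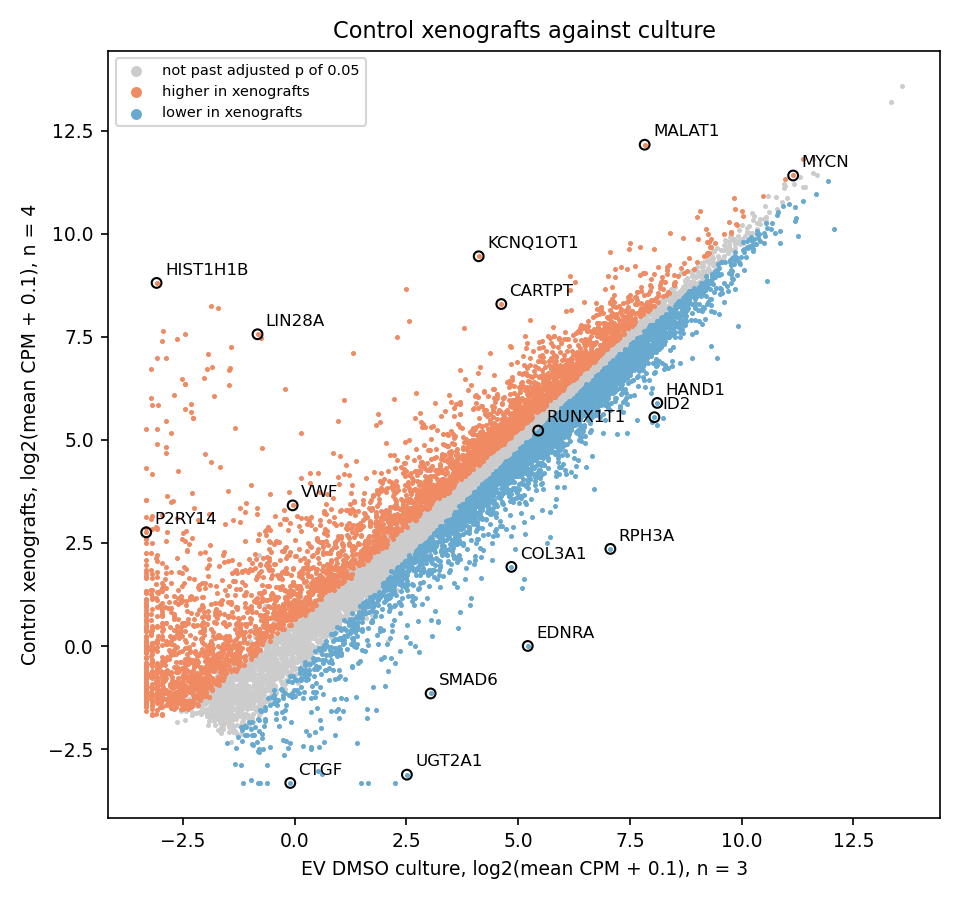
Each point is 1 of 15214 genes, placed by its mean CPM in 3 EV DMSO cultures (horizontal) and 4 control xenografts (vertical), both as log2 of CPM plus 0.1. HIST1H1B, LIN28A and MALAT1 lie far above the diagonal, EDNRA, RPH3A and SMAD6 far below it, and MYCN and RUNX1T1 lie close to it.

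Replication-dependent histone genes had the highest median of the lists with at least 10 tested members. Their mRNAs carry the core and linker histones of newly copied DNA, and are known to end in a conserved stem-loop in place of a poly(A) tail. All 23 tested members of 24 were higher in the control xenografts and 0 lower, with a median log2 fold change of 9.28 when the 8 members with at most 3 counts over the cultures are set to the limit that 3 counts allow, and all 23 were higher in the second set too. HIST1H1B, a linker histone, had 257, 464, 557 and 511 CPM in the 4 xenografts and 1, 1 and 0 counts in the cultures, a ratio of 24848 with a 95% counting interval of 6879 to 205178. HIST1H2AB had 36.4, 33.1, 43.3 and 41.1 CPM in the xenografts and no count in the cultures, so that it was at least 1425-fold higher against a floor of 3 counts over the group. HIST1H4C, which had counts in every library, measured 310.4, 270.1, 327 and 311 CPM in the xenografts and 0.145, 0.197 and 0.175 CPM in the cultures (1751-fold, edgeR adjusted p = 1.17e-10). No xenograft overlapped a culture for any member. Histone genes of the same type, such as H4, are similar in sequence, so that their reads may be split between members of that type. Here and in the lists below, a list with 0 members called in a direction also held 0 members with an unadjusted edgeR p under 0.05 in that direction, and 0 called by DESeq2 or by limma voom.

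The stem-loop was searched in the last 100 bases of the GENCODE v44 protein-coding transcripts as 6 bases starting with GG, 4 loop bases starting with TT, and the reverse complement of the first 6. It was found for 20 of the 22 histone list members with such a transcript, and for 71 of 19676 genes (0.361%) overall. The stretches below are shown because they are what these transcripts share, each within the 3′ end of a single-exon gene on GRCh38, 5′ to 3′ on the gene's strand with the stem-loop in capitals.
HIST1H1B (H1-5, chr6:27866792-27866817, minus strand): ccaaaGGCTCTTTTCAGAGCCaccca
HIST1H4C (H4C3, chr6:26104312-26104337, plus strand): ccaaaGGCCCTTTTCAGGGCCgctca
HIST1H2AB (H2AC4, chr6:26033093-26033118, minus strand): gcaaaGGCTCTTTTCAGAGCCaccta
HIST2H2AC (H2AC20, chr1:149887386-149887411, plus strand): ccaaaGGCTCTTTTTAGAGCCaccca
Of the 19 members placed on the genome this way, 12 shared the 16 bases of HIST1H1B and 4 those of HIST1H4C.

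Among nuclear long non-coding RNAs, 4 of 12 tested were higher and 4 lower. MALAT1, an RNA of nuclear speckles, was at 5018, 5647, 3989.9 and 3628 CPM in the xenografts and 247, 236 and 199.8 CPM in the cultures (20.1-fold). KCNQ1OT1, an imprinted antisense RNA, rose from 21.1, 15.6 and 15.1 CPM in the cultures to 787, 949, 517 and 549 CPM in the xenografts, a log2 fold change of 5.34 that was 2.07 with the length trend removed. NEAT1, the scaffold of paraspeckles, moved the other way, at 208, 262, 163 and 148 CPM in the xenografts and 530.4, 515 and 466 CPM in the cultures, a 2.58-fold lower level. Antisense and overlapping genes such as KCNQ1OT1 share reads with their neighbours unless counting used the strand, which is not given in the sources used here.

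LIN28A stood out among genes close to silent in culture. It encodes an RNA-binding protein that blocks maturation of let-7 microRNAs. LIN28A had 177, 147, 213 and 218 CPM in the 4 control xenografts and 0.581, 0.338 and 0.467 CPM in the 3 cultures, a 402-fold difference (log2 fold change 8.65 ± 0.231 SE, edgeR adjusted p = 6.01e-09). On the scale of all 26 libraries it spanned 104 to 155 CPM in the tumours labelled knock-out and 0.345 to 2.75 CPM over all 18 cultures, so that every tumour lay above every culture. Its paralogue LIN28B was higher as well, at 558, 477, 524 and 551 CPM against 456, 424 and 382 CPM, a 1.25-fold difference.

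Of genes at a mean of at least 5 CPM in the xenografts and under 1 CPM in culture, 58 qualified, and the other 6 with the largest fold changes were SERF1A, P2RY14, TMEM14E, TAS2R13, TAS2R30 and ERVFRD-1. P2RY14, a receptor for UDP-sugars, had 6.13, 10.2, 4.42 and 5.89 CPM in the xenografts and no count in the cultures, at least 247-fold higher. ERVFRD-1, which encodes the envelope protein syncytin-2, had 5.47, 8.56, 3.61 and 4.69 CPM in the xenografts and 1 count over the 3 cultures, a ratio of 619.9 with a 95% counting interval of 111 to 24483. The bitter taste receptors TAS2R13 and TAS2R30 lie in a family of similar genes, and SERF1A has near-identical copies, so that their reads may be split. SERF1A was also not called against shAMB DMSO cultures (log2 fold change 2.00, edgeR adjusted p = 0.104) or in the second set (1.12, edgeR adjusted p = 0.335).

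Among genes expressed in both groups, CARTPT, FAT3 and ZBTB20 were among the 8 with the largest rises, with MALAT1, KCNQ1OT1, TTN, ANKRD36 and CCSER1. CARTPT, the precursor of a neuropeptide, had 302, 263, 344 and 346 CPM in the xenografts and 23.2, 25.9 and 24.5 CPM in the cultures, a 12.8-fold rise. FAT3, an atypical cadherin, was 15.3-fold higher, or a log2 fold change of 3.94 that was 2.75 with the length trend removed, and ZBTB20, a zinc finger repressor, had 3.01 and 1.44. TTN, the gene of the muscle protein titin and one of the longest human transcripts, was at 72.3, 90.4, 57.6 and 59.0 CPM against 7.39, 5.97 and 5.96 CPM, and its log2 fold change of 3.44 was 0.22 with the length trend removed (edgeR adjusted p = 0.0559), which ended the call.

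The largest falls among expressed genes were those of RPH3A, PALMD, PIANP, TMOD1, ANP32B, TAF15, ID2 and CUX2. RPH3A, a Rab3 effector of synaptic vesicles, had 4.53, 5.81, 4.42 and 5.3 CPM in the xenografts and 129, 132 and 141 CPM in the cultures, a 26.7-fold lower level (edgeR adjusted p = 4.43e-09). EDNRA, the endothelin A receptor, fell from 40.6, 36.0 and 34.6 CPM to 0.787, 1.06, 0.926 and 0.831 CPM, 41.2-fold. Both were lower again in the second set, with log2 fold changes of -4.27 and -4.74. UGT2A1, a glucuronosyltransferase, had 6.44, 5.6 and 4.76 CPM in the EV cultures and 3 counts over the 4 xenografts, a ratio of 368 with a 95% counting interval of 126 to 1785. On the scale of all 26 libraries it was at most 0.0973 CPM in the cultures of the sh4 and shAMB lines and was measured at 4.83 to 6.65 CPM with DMSO and 3.08 to 4.3 CPM with doxycycline in the EV line.

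Notch and BMP targets had the lowest median of the lists with more than 10 tested members, at -1.20, against 0.00 over all genes. BMP ligands signal through SMAD proteins to the ID genes, whose products block neurogenic helix-loop-helix factors, and to the feedback inhibitors SMAD6, SMAD7 and BAMBI. Of 18 tested members of 24, 12 were lower and 2 higher in the control xenografts, and in the second set 15 of 19 were lower and 2 higher. SMAD6, an inhibitory SMAD, had 0.17, 0.369, 0.473 and 0.389 CPM in the xenografts and 7.7, 8.3 and 8.41 CPM in the cultures, 22.9-fold lower (edgeR adjusted p = 6.97e-07). ID1 had 1.04, 1.03, 1.93 and 1.7 CPM in the xenografts and 8.7, 9.74 and 9.02 CPM in the cultures, 6.36-fold lower. ID2 had 39.1, 41.0, 53 and 53.8 CPM and 272, 267 and 256 CPM, 5.67-fold lower, and none of these groups overlapped.

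Further members of the same pathway were picked after their values were seen. ID3 and ID4 were 4.75-fold and 4.64-fold lower in the xenografts, and the feedback inhibitors BAMBI and SMAD7 4.6-fold and 2.76-fold lower. The Notch target HES1 had 0.638, 0.861, 1.36 and 1.01 CPM in the xenografts and 2.45, 2.67 and 2.04 CPM in the cultures. The rises were those of JAG1, a Notch ligand, at 6.36, 8.31, 7.64 and 6.56 CPM against 2.28, 2.42 and 1.63 CPM, and of HEY2, at 0.362, 0.344, 0.378 and 0.283 CPM against 0.17, 0.169 and 0.117 CPM, which lost its call in 5 of 21 alternatives. BMP7, a ligand, had 86.8, 94.4, 113 and 103 CPM and 93.3, 97.8 and 100.1 CPM, with overlapping groups (log2 fold change 0.03, 95% interval -0.18 to 0.24). It was lower without overlap in the second set (log2 fold change -0.31, edgeR adjusted p = 0.0463). With the length trend removed 12 members were again lower, and with shAMB DMSO cultures in place of the EV cultures 11 were.

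**Figure D4:**
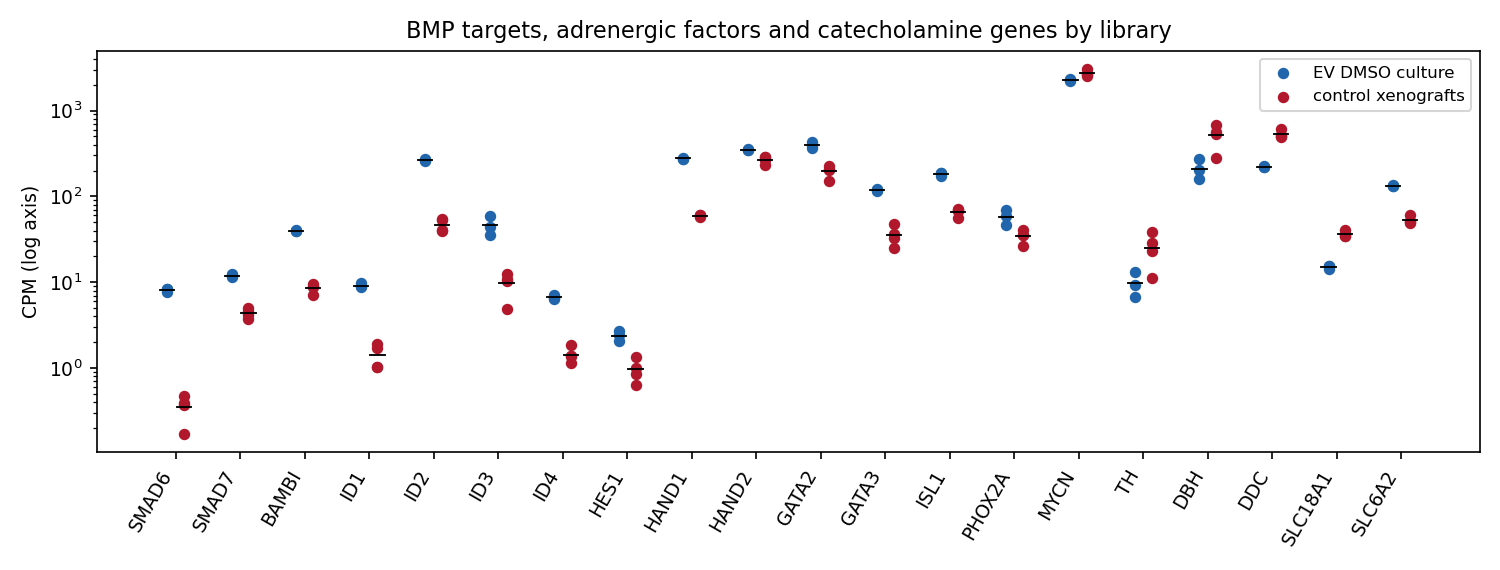
Points are libraries (3 EV DMSO cultures, 4 control xenografts) and black lines group means, in CPM on a log axis. All genes from SMAD6 to PHOX2A are lower in the xenografts, DDC, DBH and SLC18A1 are higher with no overlap, and TH is higher with 1 xenograft within the range of the cultures.

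The adrenergic transcription factors were mostly lower. Of 18 tested, 12 were lower and 5 higher, with a median log2 fold change of -0.60. HAND1 had 57.0, 60.3, 61.4 and 59.1 CPM in the xenografts and 279, 275 and 276 CPM in the cultures, 4.66-fold lower (edgeR adjusted p = 1.18e-08). GATA3 had 32.9, 47.9, 25.1 and 36.2 CPM and 116, 119 and 121 CPM, 3.35-fold lower. ISL1, a LIM homeodomain factor, was 2.74-fold lower. HAND2 was 1.31-fold lower. In the second set 9 of 18 were lower and 3 higher, HAND1 with a log2 fold change of -2.26 and HAND2 with -0.12 (edgeR adjusted p = 0.316).

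Genes of catecholamine synthesis and storage did not move in 1 direction, with 8 of 22 higher and 7 lower. Of 10 enzymes 5 were higher and 2 lower. DDC, which makes dopamine, had 502, 496, 617 and 516 CPM in the xenografts and 223, 219.9 and 222 CPM in the cultures, 2.41-fold higher. DBH, which makes noradrenaline, had 282, 531, 681 and 556 CPM and 159.8, 204 and 269 CPM, 2.43-fold higher, and was not called in the second set (log2 fold change 0.83, edgeR adjusted p = 0.104). TH, the first and rate-limiting enzyme, had 11.1, 28.3, 38.0 and 23.4 CPM and 6.64, 9.34 and 13.1 CPM, 2.6-fold higher with overlapping groups (edgeR adjusted p = 0.0091), and was not called in the second set (log2 fold change -0.30, edgeR adjusted p = 0.612). Against sh4 DMSO cultures the log2 fold change of TH was 0.68 (edgeR adjusted p = 0.124). The transporters were split. The vesicular transporter SLC18A1 was 2.44-fold higher, while its paralogue SLC18A2 and the noradrenaline transporter SLC6A2 were 1.83-fold and 2.52-fold lower, SLC18A2 without a call in the second set (log2 fold change -0.30, edgeR adjusted p = 0.0694).

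In the MYC network, 3 of 11 members were higher and 3 lower. MYCN had 2501, 2650.2, 3047 and 2698 CPM in the xenografts and 2279, 2231 and 2327 CPM in the cultures, 1.2-fold higher (edgeR adjusted p = 0.0291), a call that was lost in 5 of 21 alternatives and in the second set (log2 fold change 0.25, edgeR adjusted p = 0.161). MAX, its binding partner, was 1.38-fold lower. MGA, a large MAX partner that represses MYC sites, had 541, 544, 469 and 467 CPM and 147, 124 and 116 CPM, and its log2 fold change of 1.97 was 1.33 with the length trend removed. Of the MYC targets in ribosome biogenesis, 17 of 35 were lower and 6 higher, among them NCL (nucleolin), which was 1.79-fold lower. With TMM over genes with at least 10 CPM 12 of these targets were lower and 8 higher. Their median log2 fold change moved from -0.24 to -0.09. Of 18 tested RUNX1T1 relatives and co-repressor partners, 9 were lower and 2 higher, but 3 were lower and 4 higher when TMM used genes with at least 10 CPM.

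Neuronal and mesenchymal genes both held falls. Of 34 neuronal differentiation genes 14 were lower and 9 higher, with a median of -0.12 that was 0.03 under TMM over genes with at least 10 CPM. NEFM, a neurofilament subunit, had 37.3, 43.3, 29.8 and 33.5 CPM in the xenografts and 184, 172 and 166 CPM in the cultures, 4.84-fold lower, and the receptor tyrosine kinase RET was 3.15-fold lower. MAP1B, a microtubule-binding protein of growing axons, was 2.76-fold higher, a log2 fold change of 1.46 that was 0.81 with the length trend removed. Of 17 mesenchymal state markers 9 were lower and 2 higher, with SNAI2 at 0.17, 0.271, 0.17 and 0.336 CPM against 1.62, 1.83 and 1.52 CPM. Of 11 retinoic acid response genes 4 were higher and 0 lower at this threshold, and RARB, a retinoic acid receptor, was 4.85-fold higher. Against shAMB DMSO cultures RARB had a log2 fold change of 1.55. In the second set 3 retinoic acid response genes were higher and 2 lower, with a median of -0.13.

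**Figure D5:**
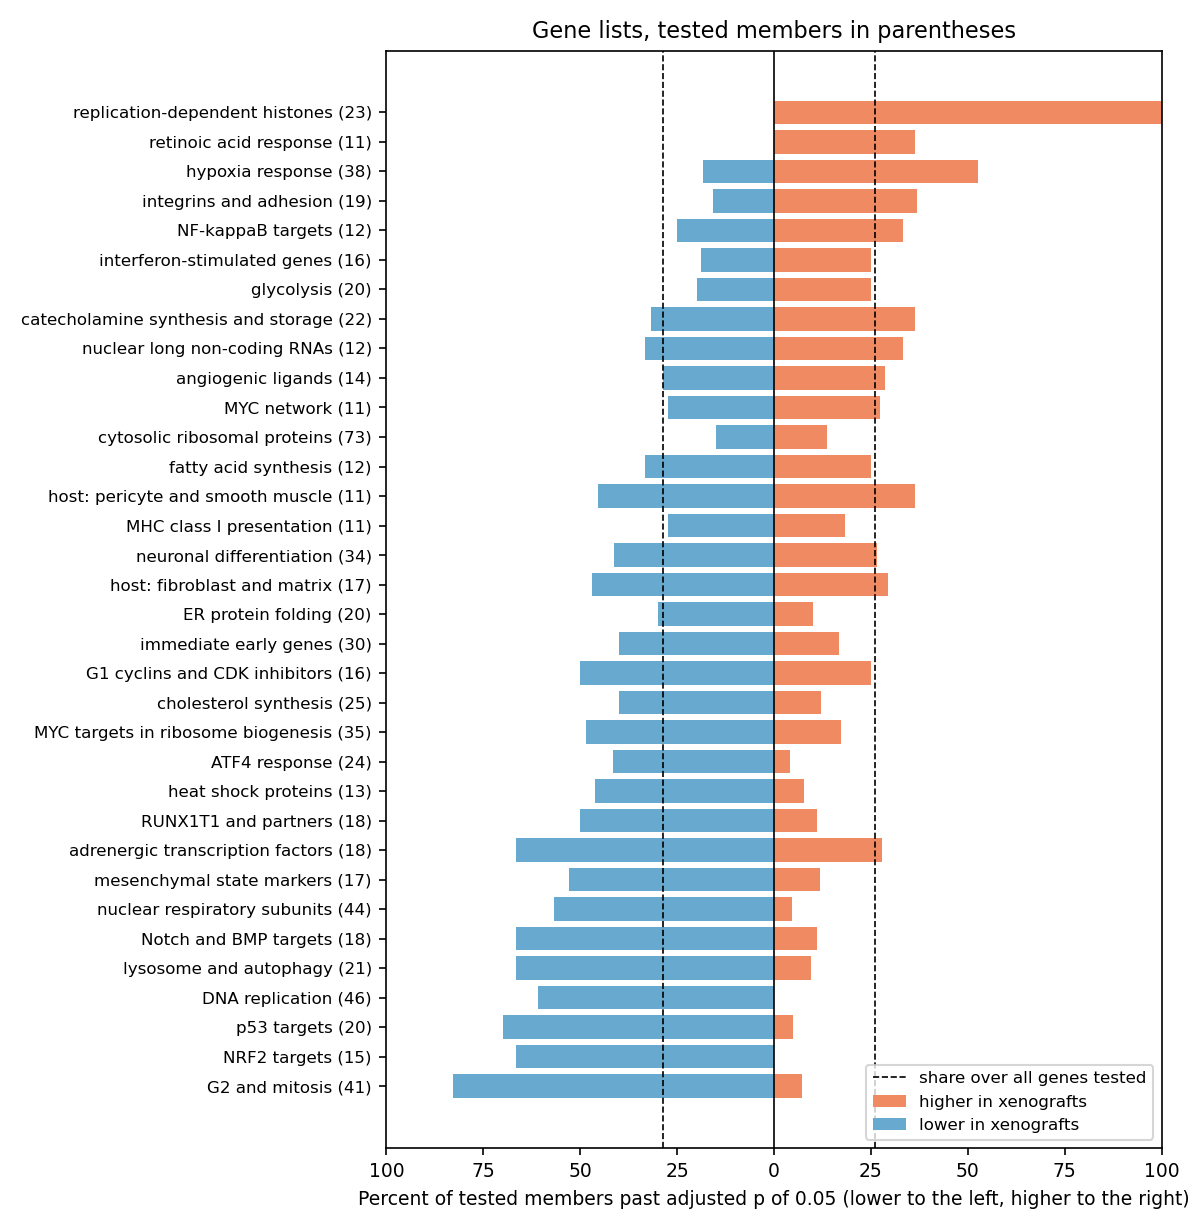
Bars give, for each gene list with at least 10 tested members, the percent of them past an adjusted p of 0.05 that were lower (left) or higher (right) in control xenografts. Dashed lines mark the shares over all 15214 genes, 28.7% lower and 26.1% higher, and the histone list (23 of 23 higher) and the G2 and mitosis list (34 of 41 lower) lie farthest from them.

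Genes of the cell cycle were largely lower. Of 46 DNA replication genes 28 were lower and 0 higher, with a median log2 fold change of -0.35, and in the second set 42 of 46 were lower. Of 41 G2 and mitosis genes 34 were lower and 3 higher, with a median of -0.54. TYMS, which makes thymidylate, had 106, 139.7, 97.1 and 123 CPM in the xenografts and 408, 398 and 379 CPM in the cultures, 3.39-fold lower (edgeR adjusted p = 1.63e-06). PCNA, the clamp of DNA polymerases, had 234, 203, 242 and 274 CPM and 494, 477 and 428 CPM, 1.96-fold lower. The mitotic kinase PLK1 was 2.06-fold lower. MKI67, CENPF and ASPM, whose transcripts are long, were higher, with log2 fold changes of 0.53, 0.53 and 0.52 that were -0.13, 0.05 and -0.0066 with the length trend removed. Removing that trend left 25 DNA replication genes lower and 0 higher and 33 mitosis genes lower and 0 higher. Of the DNA replication genes, 24 were lower and 2 higher under TMM over genes with at least 10 CPM, and 27 were lower and 6 higher against shAMB DMSO cultures.

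Regulators of the G1 phase moved both ways. CDKN1C (p57), a CDK inhibitor, had 12.9, 4.08, 4.57 and 4.56 CPM in the xenografts and 0.63, 0.31 and 0.496 CPM in the cultures, 13.4-fold higher, with xenograft 1 well above the others. CDK6, a G1 kinase, was 2.62-fold higher, a log2 fold change of 1.39 that was 0.78 with the length trend removed. CDKN1A (p21), the main inhibitor induced by p53, had 4.96, 9.03, 6.96 and 7.3 CPM and 20.3, 22.7 and 25.2 CPM, 3.23-fold lower, but was not called in the second set (log2 fold change -0.49, edgeR adjusted p = 0.0838). CCND1, a G1 cyclin, was 1.58-fold lower. Of 20 p53 targets 14 were lower and 1, MDM2, was higher. Among the lower targets PMAIP1, a mediator of apoptosis, fell 2.32-fold.

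Of 38 hypoxia response genes tested, 20 were higher and 7 lower, with a median log2 fold change of 0.52. In the second set 14 of 39 were higher and 7 lower, with a median of 0.27. NDRG1, a stress-induced growth suppressor, had 42.7, 24.5, 30.1 and 22.7 CPM in the xenografts and 3.13, 4.19 and 4.7 CPM in the cultures, 7.5-fold higher (edgeR adjusted p = 7.92e-06). EGLN3, an oxygen-sensing prolyl hydroxylase, had 25.6, 11.7, 10.5 and 12.2 CPM and 2.79, 2 and 2.22 CPM, 6.39-fold higher. The secreted glycoprotein STC1 was 5.66-fold higher. CA9, a surface carbonic anhydrase that exports acid, had 1.57, 0.369, 0.624 and 0.637 CPM and 0.121, 0.141 and 0.175 CPM, a 5.46-fold rise at levels near 1 CPM and below that was not called in the second set (log2 fold change 1.99, edgeR adjusted p = 0.0603). EPO, the hormone of red cell formation, had 1.64, 0.467, 0.945 and 0.973 CPM and 2 counts over the cultures, a ratio of 55.9 with a 95% counting interval of 15.5 to 461. Control xenograft 1 was the highest for NDRG1, EGLN3, CA9 and EPO, and was also the library with muscle myosin counts given below, whose part in these values was not tested.

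Other targets of the same pathway fell. IGFBP3, which binds insulin-like growth factors, had 1.6, 1.03, 1.36 and 1.06 CPM in the xenografts and 12, 13 and 12.6 CPM in the cultures, 9.89-fold lower. Its log2 fold change of -3.31 was -4.22 against sh4 DMSO cultures and -0.85 in the second set. VEGFA, the main vessel growth factor, had 71.6, 64.0, 66.8 and 60.7 CPM and 72.7, 79.9 and 81.1 CPM, 1.18-fold lower, a call that was lost in 16 of 21 alternatives and in the second set (log2 fold change -0.56, edgeR adjusted p = 0.0604). HIF1A and EPAS1, the oxygen-regulated subunits, were 1.25-fold and 1.3-fold lower, and the call of HIF1A was lost in 8 of 21 alternatives and in the second set (log2 fold change 0.01, edgeR adjusted p = 0.936). Of 20 glycolysis genes 5 were higher and 4 lower, against 3 higher and 7 lower in the second set. SLC16A3, a lactate exporter, was at 3.23, 3.03, 5.35 and 3.68 CPM against 0.533, 0.535 and 0.38 CPM, without a call in the second set (log2 fold change 1.29, edgeR adjusted p = 0.119), while LDHA and ENO2 were 1.44-fold and 1.49-fold lower.

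Promoters of the hypoxia list were searched for ACGTG, the core of the hypoxia response element, on both strands in the RefSeq windows of 250 bases before to 50 after the start (GRCh38.p14). Both strands of CACGTG match, and such overlaps counted as 1 promoter. The letters were present in 16 of 32 members with a window (50%) and in 5900 of 27305 promoters overall (21.6%). They were present in 9 of 17 higher members, 4 of 6 lower members and 3 of the other 9. Stretches upstream of the start are shown for CA9, ANGPTL4 and BHLHE40, higher members that have a match there, with the match in capitals.
CA9 (chr9:35673885-35673927, plus strand, 13 bases before the start): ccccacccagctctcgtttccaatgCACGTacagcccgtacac
ANGPTL4 (chr19:8363905-8363950, plus strand, 229 bases before the start): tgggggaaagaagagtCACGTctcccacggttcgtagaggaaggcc
BHLHE40 (chr3:4979263-4979317, plus strand, 144 bases before the start): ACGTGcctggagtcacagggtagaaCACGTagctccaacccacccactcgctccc
ANGPTL4, a secreted lipase inhibitor, was 3.9-fold higher and the transcription factor BHLHE40 2.28-fold higher in the control xenografts, and in the second set their log2 fold changes were 0.11 and 0.58 (edgeR adjusted p = 0.859 and 0.0472).

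Cholesterol synthesis genes leaned lower, with 10 of 25 lower and 3 higher, and 16 of 25 lower and 0 higher in the second set. In the first comparison 7 were lower and 4 higher with the length trend removed, and likewise under TMM over genes with at least 10 CPM. Against shAMB DMSO cultures 10 were lower and 6 higher. STARD4, a sterol carrier, had 99.4, 95.2, 97.4 and 98.8 CPM in the xenografts and 295, 262 and 238 CPM in the cultures, 2.71-fold lower (edgeR adjusted p = 6.97e-07). HMGCS1 and FDFT1, enzymes early in the pathway, were 1.78-fold and 1.88-fold lower. ABCA1, which exports cholesterol, was 3.24-fold higher. The sterol regulatory element letters TCACNCCAC, on either strand, were in 1 of 19 promoters of the list (5.26%) and 313 of 27305 overall (1.15%).

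Immediate early genes, which respond within minutes to growth factors and stretch, were lower in 12 of 30 and higher in 5. CTGF, a target of the YAP1 co-activator, had 0.872, 0.901 and 0.73 CPM in the cultures and no count in the 4 xenografts, at least 54.8-fold lower. CYR61, of the same family, had 0.681, 0.935, 0.624 and 0.69 CPM and 3.9, 3.74 and 4.09 CPM, 5.35-fold lower. FOS and NR4A3 were 3.32-fold and 3.62-fold higher. Groups overlapped for EGR1, at 5.04, 2.95, 0.851 and 2.4 CPM against 1.96, 2.36 and 2.16 CPM. In the second set EGR1 was lower in the tumours without overlap (log2 fold change -1.35, edgeR adjusted p = 0.000956).

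Lists of stress handling and turnover held more falls than rises, except for ribosomal proteins, which were near balance. Of 15 NRF2 targets 10 were lower and 0 higher, with NQO1, a quinone reductase, at 16.2, 13.8, 15.1 and 16.3 CPM in the xenografts and 47.7, 46.8 and 45.2 CPM in the cultures. Of 21 lysosome and autophagy genes 14 were lower and 2 higher, among them GABARAPL1, which was 4.4-fold lower. Of 24 ATF4 response genes 10 were lower and 1 higher. Of 20 genes of protein folding in the endoplasmic reticulum 6 were lower, a share near the background, and 2 higher. Under TMM over genes with at least 10 CPM 5 of these were lower and 8 higher. HSPA5, the main chaperone of that compartment, had 299, 261, 248 and 255 CPM and 759, 729 and 676 CPM, 2.71-fold lower. Of 13 heat shock protein genes 6 were lower and 1 higher, against 4 lower and 4 higher under that TMM. HSP90AA1 was 2.5-fold lower and HSPA1B 2.14-fold higher. Of 44 nuclear genes of respiratory subunits 25 were lower and 2 higher. Of 73 cytosolic ribosomal protein genes 11 were lower and 10 higher, and their balance turned with the setting. With the length trend removed 50 were lower and 6 higher, whereas under TMM over genes with at least 10 CPM 5 were lower and 23 higher, and against shAMB DMSO cultures 10 were lower and 22 higher. Calls went both ways in the immune lists. Of 12 NF-kappaB targets 4 were higher and 3 lower, and of 16 interferon-stimulated genes 4 were higher and 3 lower. B2M, the light chain of MHC class I, had 64.1, 51.6, 70.1 and 65.2 CPM and 173, 177 and 155 CPM, 2.68-fold lower.

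Markers of mouse host cells were read because mouse transcripts can align to human genes and the separation of reads by species is not given in the sources used here. Their levels, given on the scale of all 26 libraries where summed, differed between lists. Of 20 macrophage markers 9 stayed under 0.1 CPM in every control xenograft, ADGRE1 had no count, and the summed level was 12.8 to 18.9 CPM in the xenografts and 4.6 to 6.52 CPM in the cultures. Of 18 endothelial markers 6 stayed under 0.1 CPM and the sums were 13.1 to 22.1 CPM and 5.8 to 8.81 CPM. HBA1, HBA2, HBB and HBD, the haemoglobin chains, had no count in any control xenograft, nor had the neutrophil genes S100A8 and S100A9. Of 6 endothelial markers tested 3 were higher and 2 lower. VWF, a clotting factor of endothelial cells, had 7.72, 9.86, 14.4 and 10.1 CPM in the xenografts. The cultures had 0.799, 0.844 and 0.963 CPM of VWF, so that it was 12.1-fold higher in the xenografts. In the second set VWF spanned 10.2 to 17.5 CPM in tumours and 5.33 to 7.81 CPM in cultures (log2 fold change 1.23, edgeR adjusted p = 0.00106). ENG and KDR of the same list reached at most 1.13 and 0.843 CPM in control xenografts, against 4.03 and 1.84 CPM in EV cultures. EMCN, ROBO4 and TIE1 of that list stayed under 0.1 CPM. CD74, the MHC class II chaperone, was 3.49-fold higher. Control xenograft 4 had 37 FLT1 and 31 ERG counts (endothelial), against at most 8 and 5 in the other control xenografts. It also had 17 counts of CD163 and 11 of AIF1 (macrophage), against 0 and at most 1 in the others. VWF and CSF1R were instead highest in control xenograft 3. The part of host reads in the larger number of genes with a count in control xenograft 4 was not tested. The fibroblast and matrix list summed to 372 to 443 CPM in the xenografts and 571 to 618 CPM in the cultures, and COL3A1, a fibrillar collagen, had 2.81, 4.33, 3.61 and 3.98 CPM against 29.7, 27.8 and 28.6 CPM, 7.8-fold lower. Of 17 tested members of that list 8 were lower and 5 higher, among the latter PDGFRA, a growth factor receptor, TIMP3, a metalloproteinase inhibitor, and COL6A3, a collagen chain, with log2 fold changes of 1.35, 1.42 and 0.56. Control xenograft 1 stood apart in skeletal muscle markers, with 99, 42 and 133 counts of the muscle myosins MYH1, MYH2 and MYH4, which had at most 1 count in any other control xenograft and 0 in the cultures. TTN of the same list had 3049 to 3673 counts in all 4 control xenografts and 204 to 305 in the cultures, and TNNT3, a fast muscle troponin, 22 to 36 and 1 to 8. CKM, the muscle creatine kinase, had 4 to 5 counts in each control xenograft and 0 in the cultures. The part of host reads in the genes that were higher was not tested.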

How the data were processed

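The members and gene lists were chosen with earlier results of these data known. Per the labels, libraries were made with a stranded total RNA kit and read as pairs, with polyA RNA named as the molecule. The submitters' processing notes name STAR, SAMtools, RSEM and hg38. The study's methods describe these tools for mouse ganglia only, and for these human libraries the versions, the annotation, the handling of mouse reads and the use of strand are not given in the sources used here. The authors deposited RSEM expected counts (estimated counts per gene symbol, not normalized) for 26485 genes in separate tables for cultures and xenografts, with a gene length in the culture table. The deposited TPM were not used, since they were scaled separately in each table. Columns headed Neg were read as DMSO and Pos as doxycycline.

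Tables were joined by gene symbol, 2438 small RNA genes were left out and counts were rounded. Genes were kept by filterByExpr and scaled by TMM (factors 0.933 to 1.05), and edgeR 4.0.16 (R 4.3.3) gave a two-sided quasi-likelihood F test with p-values adjusted by Benjamini-Hochberg across the genes tested. The 4 control xenografts and 3 EV DMSO cultures were fitted alone, and the second set likewise. The median biological coefficient of variation was 0.149. Lists were counted without a test. Intervals from counts cover counting error only. Replicates differed beyond sampling noise (chi-square per degree of freedom of at least 10.0) and none were identical. The fit was tested on simulated counts.

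Genes past an adjusted p of 0.05 with the largest changes and groups that did not overlap were named at 5 CPM or more in both groups (8 per direction) and at 5 CPM or more in the higher and under 1 CPM in the lower group (7 per direction). From each list came up to 3 rises and 3 falls past that threshold, whether or not groups overlapped, and, whether or not past it, any member of the hypoxia, glycolysis, cholesterol, immediate early, DNA replication, catecholamine, adrenergic, MYC network and host lists that its role called for. RUNX1T1, MYCN, MAX and HAND2 were always named. Ribosomal protein, histone, mitochondrial, small RNA and unnamed genes were left out of those sets outside the lists. CDK6, HIST1H4C, HIST2H2AC, HES1, BMP7, ID3, ID4, SMAD7 and BAMBI are outside this rule and were picked after their values were seen. Alternatives were other scalings and filters, DESeq2 1.42.0, limma voom 3.58.1, length or GC trends removed, a replicate block, other control cultures and each library left out. Some list members are not reported here by name and are included in the list counts only.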

Additional observations from a re-analysis of the deposited data

Results flagged for a closer look

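Among the 4 libraries of each xenograft group, the highest or lowest library was taken to stand apart where its gap to the nearest of the others, as a share of the group's range, exceeded Dixon's 95% critical value. This held for 18 of 343 sets of 4 values of named genes, and chance alone gives about 1 in 20. Causes were not tested. In the control xenografts the highest library stood apart for EGLN3 (25.6 CPM against 10.5 to 12.2 CPM), CENPF (1607 CPM against 1433 to 1461 CPM), CDKN1C (12.9 CPM against 4.08 to 4.57 CPM), HSPA1B (61 CPM against 41.3 to 42.2 CPM), DDC (617 CPM against 496 to 516 CPM) and VIM (19.5 CPM against 16 to 16.4 CPM). In the control xenografts the lowest library stood apart for SCAP (57.4 CPM against 84.9 to 88.1 CPM) and ZFP36 (0.148 CPM against 0.371 to 0.404 CPM). In the xenografts labelled knock-out the highest library stood apart for TAF15 (69.6 CPM against 48.8 to 51.1 CPM), CA9 (1.58 CPM against 0.253 to 0.363 CPM), CTGF (0.0605 CPM against 0 CPM in each of the others), MXD1 (18.6 CPM against 15.2 to 15.7 CPM), ATF5 (6.41 CPM against 2.55 to 2.96 CPM), GATA3 (54.5 CPM against 35.7 to 38.7 CPM) and SLC6A2 (53.8 CPM against 36.7 to 39.1 CPM). In the xenografts labelled knock-out the lowest library stood apart for HIF1A (316 CPM against 377 to 384 CPM), ACACA (304 CPM against 334 to 337 CPM) and PMAIP1 (14.5 CPM against 20.1 to 21.2 CPM).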

How the results depend on the processing

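The count of changed genes, 8325, was 6789 to 8926 with 1 library left out, and 8081 to 9548 under the other alternatives on all genes kept. Among these it was 8094 by the DESeq2 Wald test, 9193 with a replicate block and 9271 against shAMB DMSO cultures. It was 2761 with a log2 fold change of at least 1 and 4712 among genes of 1000 to 4000 bases (the latter chosen after seeing the data, as was removing length and GC trends together), where the rule itself leaves fewer genes. In the second set the count was 9030, 7275 to 10046 with 1 library left out, 3387 with a log2 fold change of at least 1, and 7978 with a replicate block. Replicate numbers were taken not to pair the samples, since same-numbered libraries correlated at 0.378, 0.012 and 0.285 in their deviations from group means, and at -0.311, -0.105 and -0.010 in the second set.

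RUNX1T1 passed the threshold, lower in xenografts, with the length trend removed (log2 fold change -0.41) and with length and GC trends removed together (-0.33). With 1 library left out it ranged from -0.35 to -0.07, with -0.35 (edgeR adjusted p = 0.0122) without control xenograft 2. In the second set its log2 fold change of -0.43 lost the threshold with DESeq2 size factors (-0.36) and with TMM over genes with at least 10 CPM (-0.29), and ranged from -0.45 to -0.28 with 1 library left out, where it was lost without knock-out xenograft 3, shAMB doxycycline culture 2 or 3.

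With the length trend removed MKI67 turned to -0.13 and ASPM to -0.0066, and in the second set MKI67, CENPF and ASPM to -0.17, -0.065 and -0.26. With length and GC trends removed together MKI67 was -0.12, and in the second set MKI67, CENPF and ASPM were -0.24, -0.18 and -0.39 and CHGA was 0.35. The median of the neuronal differentiation list turned to 0.026 with TMM over genes with at least 10 CPM, and that of the MYC network to -0.22 against sh4 DMSO cultures. In the second set the median of the hypoxia regulators turned to 0.029 with that TMM, and that of the interferon-stimulated genes to 0.0031 with it and 0.00795 with length and GC trends removed together. With 1 library left out that median ranged from -0.192 to 0.041, the latter without knock-out xenograft 4. The cause of these turns was not tested. Of 168 named genes past the threshold, 18 lost it or turned in at least 1 alternative, and the rest did so in none of those run. Against sh4 DMSO cultures RUNX1T1 had a log2 fold change of 0.16 (edgeR adjusted p = 0.297).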
